A study of Homo sapiens with 28 samples.

Results

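The long noncoding RNA genes MALAT1, NEAT1, GAS5, SNHG1, SNHG5, SNHG8, SNHG12, DANCR, PVT1 and EPB41L4A-AS1, were followed through 28 RNA-seq libraries of HCT116 cells, an established human colorectal carcinoma line. They are 10 of the 58278 genes in the count table and were chosen by name, as long noncoding RNAs known to be abundant or to host small nucleolar RNAs (snoRNAs). Their symbols matched 11 rows, because a 95-base stretch inside MALAT1 has a row of its own with counts of 2, 3 and 3 in 3 libraries and none elsewhere, and that row is not used here. All 10 passed the filter on low counts in tumors and in cultures.

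The study asked what residual tumors look like after inhibition of CDK4 and CDK6 by Palbociclib and of glutaminase by Telaglenastat (Telaglenestat in the sample labels). HCT116 cells carrying luciferase and GFP were injected under the skin of male NOD-SCID mice aged 5 weeks, which lack mature lymphocytes, and from day 8 the mice received vehicle (Control), Palbociclib at 100 mg/kg/day, Telaglenastat at 150 mg/kg/day or both drugs (Combination) by mouth for 23 days. The tumor libraries number 3 for Control, 5 for Palbociclib, 4 for Telaglenastat and 4 for Combination. The other 12 libraries are cultures explanted from tumors, 3 independent lines for each treatment, grown without either drug, so a culture named for a treatment had met that drug only in the mouse. All 8 groups derive from 1 cell line, and which tumor a culture came from is not given in the sources used here.

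Long noncoding RNAs act as RNA without encoding a protein. MALAT1 gathers in nuclear speckles, where splicing factors are stored, and NEAT1 is the scaffold on which paraspeckles, another kind of nuclear body, assemble. The snoRNA hosts carry in their introns the small RNAs that guide chemical modification of ribosomal RNA. Once spliced, many host transcripts reach ribosomes, contain early stop codons and are removed by nonsense-mediated decay, so their levels are known to rise when translation slows. PVT1 lies next to the MYC oncogene and is known for its amplification together with MYC in tumors.

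On GRCh38, MALAT1 (ENSG00000251562.7) occupies chr11:65497688-65506516 and NEAT1 (ENSG00000245532.7) chr11:65422774-65445540, both on the plus strand and each annotated as 1 block of exon sequence. The hosts are GAS5 (chr1:173863900-173868882, minus), SNHG1 (chr11:62851988-62855914, minus), SNHG5 (chr6:85660950-85678748, minus), SNHG8 (chr4:118278709-118279823, plus), SNHG12 (chr1:28578538-28583132, minus), DANCR (chr4:52712404-52720351, plus) and EPB41L4A-AS1 (chr5:112160526-112164276, plus). In RefSeq's annotation, GAS5 holds 11 snoRNA genes, SNHG1 holds 9, SNHG12 holds 4, SNHG5 holds 2, and SNHG8, DANCR and EPB41L4A-AS1 hold 1 each. Every one of these 29 snoRNAs lay within an intron of at least 1 transcript of its host. The libraries were made from poly(A) RNA and barely sampled the snoRNAs themselves, since rows with their symbols (23 of 29 had one, copies elsewhere in the genome included) took 205 counts over the 16 tumors against 87062 on the host rows.

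Promoter sequences of 8 of the 10 genes were found in the RefSeq table (GRCh38.p14), and NEAT1 and PVT1 were not in it. The stretches below run from 50 bases before to 20 bases after the annotated start and are shown to set the starts of the snoRNA hosts beside each other and beside that of MALAT1, which hosts none. Capitals mark the letters TATAA within the 50 bases before the start, searched on both strands, and a run from the start of C followed by at least 4 C or T, the kind of start known from genes of the translation machinery. They lie at chr11:65497688-65497757 and chr11:65498995-65499064 (MALAT1, entries 1 and 2, plus strand), chr1:173869026-173869095 (GAS5, minus), chr11:62855866-62855935 (SNHG1, minus), chr6:85678714-85678783 (SNHG5, minus), chr4:118278712-118278781 (SNHG8, plus), chr1:28581854-28581923 (SNHG12, minus), chr4:52712344-52712413 (DANCR, plus) and chr5:112160476-112160545 (EPB41L4A-AS1, plus).
MALAT1 entry 1: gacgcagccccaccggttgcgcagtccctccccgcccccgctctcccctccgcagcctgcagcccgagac
MALAT1 entry 2: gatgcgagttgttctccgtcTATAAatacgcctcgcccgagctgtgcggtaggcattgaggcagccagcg
GAS5: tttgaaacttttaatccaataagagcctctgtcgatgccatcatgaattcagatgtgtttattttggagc
SNHG1: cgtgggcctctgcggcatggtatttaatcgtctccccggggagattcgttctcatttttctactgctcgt
SNHG5: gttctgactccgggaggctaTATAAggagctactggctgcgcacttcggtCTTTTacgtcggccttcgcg
SNHG8: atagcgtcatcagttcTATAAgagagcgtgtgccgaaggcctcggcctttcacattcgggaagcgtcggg
SNHG12: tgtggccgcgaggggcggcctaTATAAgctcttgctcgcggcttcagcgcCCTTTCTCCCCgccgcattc
DANCR: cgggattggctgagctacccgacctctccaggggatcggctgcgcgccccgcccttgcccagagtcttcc
EPB41L4A-AS1: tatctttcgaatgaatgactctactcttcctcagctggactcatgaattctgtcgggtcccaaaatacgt

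TATAA stood on the strand of the gene in 4 of the 9 entries (the second of MALAT1, SNHG5, SNHG8 and SNHG12), between 28 and 34 bases before the start, and on the other strand in none. Of all 35116 promoters in the table, 4.74% held it on the strand of the gene and 2.63% on the other strand. The pyrimidine run stood at the start of SNHG5 and SNHG12, against 4.07% of all promoters. Annotated starts differ between catalogs. The second RefSeq start of MALAT1 lies 1357 bases and that of SNHG12 1259 bases downstream of the GENCODE start of the gene, and that of GAS5 lies 163 bases upstream. A match is a description of the window printed, and a missing match says only that these letters are not in it.

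Library totals ranged from 6273834 to 13815675 counts, and the 10 genes together took between 0.129% and 0.360% of a library's counts. How far GC-rich genes were counted above GC-poor ones varied with the treatment, and neither labels nor methods name a sequencing batch. This is given as a GC slope, fitted to log2 CPM (counts scaled to library size) less each gene's mean over all tumors, or over all cultures. The slope is the change for each SD of gene GC content, the genes tested averaging 49.7% GC with an SD of 8.1. Its sign is thus relative to the mean of the tumors or of the cultures, which are different baselines. The slope was 0.255 ± 0.00606 (SD, n = 3) in Control, 0.284 ± 0.107 (SD, n = 5) in Palbociclib, -0.338 ± 0.0355 (SD, n = 4) in Telaglenastat and -0.208 ± 0.0573 (SD, n = 4) in Combination tumors. The 10 genes lie between 39.6% GC (MALAT1) and 52.0% (SNHG12), 8 of them below the average, so tumor values are in many places also given after a spline fitted to GC content and gene length was taken out of each library (corrected). Mitochondrial transcripts took 13.2% to 14.8% of counts in Combination tumors and 6.78% to 7.22% in Control tumors. They took 8.28% to 13.6% in Palbociclib tumors, reaching into the Combination range, and 6.23% to 9.07% in Telaglenastat tumors. Of 8 epithelial markers, EPCAM averaged 447 CPM in tumors and 396 CPM in cultures and CDH1, KRT8, KRT18 and KRT19 were also plentiful, while the intestinal markers KRT20 (3.28 CPM in tumors), VIL1 (1.68) and CEACAM5 (0.0524) were low. The 8 summed to 2621 to 3165 CPM in Control, 2885 to 3994 in Palbociclib, 1555 to 1715 in Telaglenastat and 2262 to 2554 in Combination tumors. The 18 stroma and blood markers summed to 276 to 333 CPM in Control, 282 to 474 in Palbociclib, 111 to 129 in Telaglenastat, 206 to 312 in Combination tumors and 25.8 to 70.8 in the cultures. Among these markers the endothelial gene CDH5 and the blood gene HBB had no count in any tumor, and the leukocyte gene PTPRC averaged 0.0789 CPM. The matrix genes COL1A1 (77.3 CPM), SPARC (55.9) and COL3A1 (30.3) and the myeloid genes CD68 (8.67), LYZ (4.96) and CSF1R (1.98) did have counts in tumors. Host cells are mouse and the reads were aligned to hg38, so these markers catch only human reads or mouse reads that mapped across. A missing count therefore does not show that vessels or blood cells were absent. The paper reports endothelial cells in these xenografts by staining. The sums do not measure stroma content, and whether mouse reads entered the members' tumor values was not tested. In bulk RNA a smaller share of cells making an RNA and less of it per cell cannot be told apart.

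Per kilobase of exon, MALAT1 and GAS5 were the most abundant members in tumors, at means over 16 libraries of 101 and 94.7 CPM per kb. The length used joins the exons of all annotated transcripts of a gene (22767 bases for NEAT1, 4266 for SNHG12). An RNA shorter than that is given too low a value, as is any RNA without a poly(A) tail in these poly(A) libraries. The order between genes is therefore only a rough one. SNHG1 followed at 43.4 CPM per kb, SNHG8 at 40.3, SNHG5 at 27.8 and NEAT1 at 16.9. EPB41L4A-AS1 had 10.3 CPM per kb, DANCR 7.75, SNHG12 7.12 and PVT1 7.04, close to one another. In tumors 98.0% of the 14848 genes tested lay below MALAT1 on this scale and 64.2% lay below PVT1. By CPM without length these shares were 99.3% and 66.4%, and DANCR was the lowest member, with 48.5% of genes below it. The label of abundant RNAs thus held for some members, and the others were of middling level on these scales. In the 12 cultures SNHG1 led at 106.5 CPM per kb, above GAS5 at 94.2 and MALAT1 at 75.4.

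**Figure D1:**
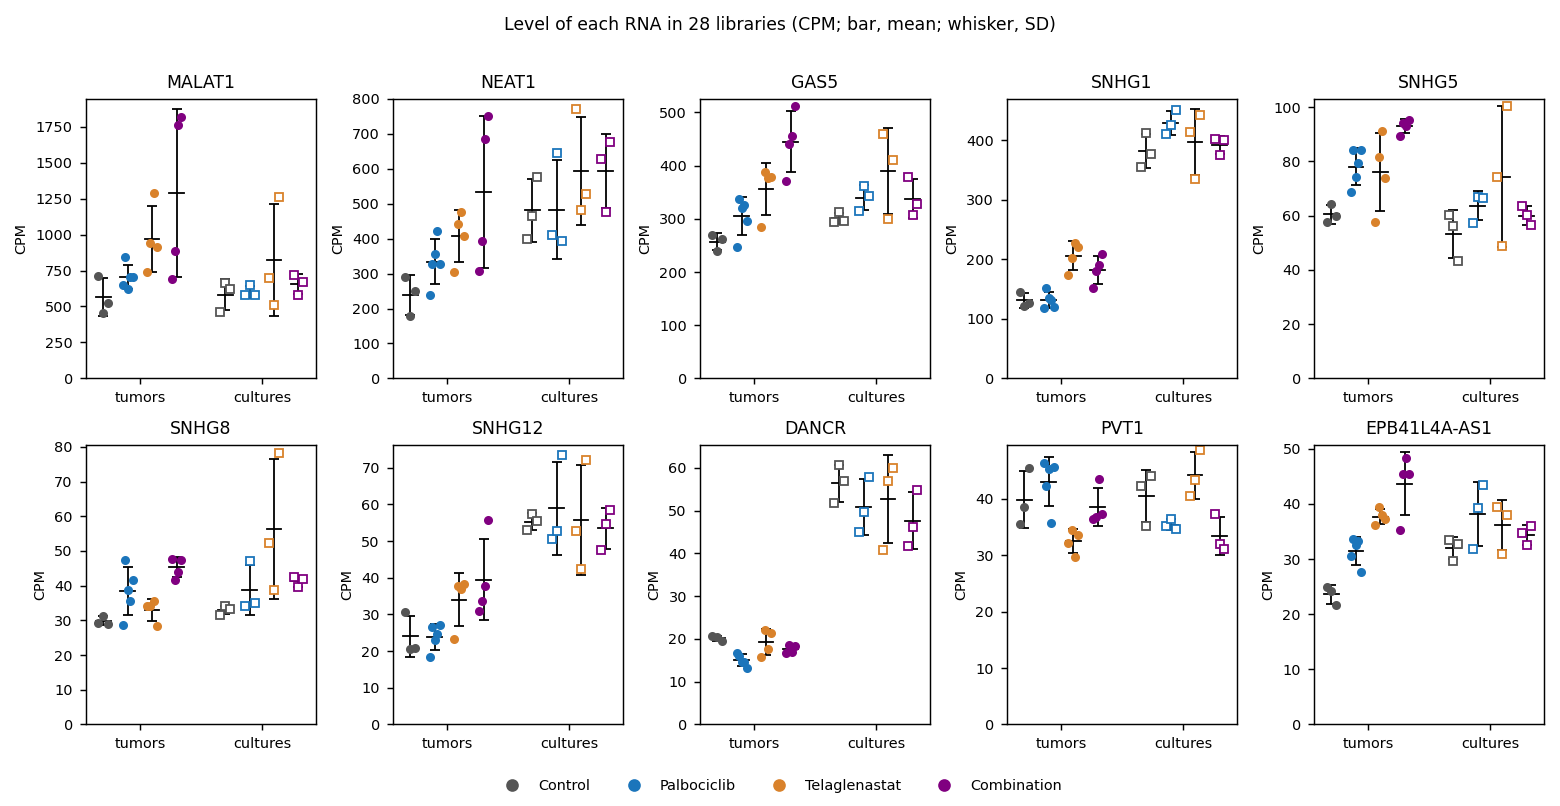
Level of each RNA in CPM (vertical axes, from 0) in the 16 tumors (filled circles) and 12 cultures (open squares), colored by treatment, with the group mean (bar) and SD (whisker). SNHG1 and DANCR lie lower in every tumor than in any culture, and MALAT1 and NEAT1 are spread widest among the 4 Combination tumors.

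In Combination tumors, 8 of the 10 RNAs rose against Control and none fell. Of all genes tested in that comparison, 17.6% were higher and 26.9% lower at an adjusted p under 0.05 in edgeR's quasi-likelihood test, the rule used throughout. The nuclear RNAs MALAT1 and NEAT1 had the largest differences, followed by EPB41L4A-AS1, GAS5 and the SNHG hosts. DANCR and PVT1, with log2 fold changes below 0, did not pass. The median log2 fold change of the 10 was 0.57, against -0.036 over all genes tested.

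MALAT1 had 712, 454 and 527 CPM in the 3 Control tumors and 693, 882, 1759 and 1819 CPM in the 4 Combination tumors. Among the latter, replicates 3 and 4 were far above the rest, while replicate 1 lay within the Control range. The log2 fold change was 1.10 (SE 0.26, adjusted p = 0.00206), and it was 0.91 (adjusted p = 0.0138) after the correction. NEAT1 had 291, 179 and 249.8 CPM in Control and 307, 392, 685 and 749.9 CPM in Combination tumors. The groups did not overlap, and the same replicates 3 and 4 were highest. Its log2 fold change was 1.06 (SE 0.26, adjusted p = 0.00222) and 0.93 (adjusted p = 0.00761) after the correction. Both calls held when any 1 of the 7 tumors was left out, with log2 fold changes of 0.88 to 1.32 for MALAT1 and 0.85 to 1.26 for NEAT1.

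**Figure D2:**
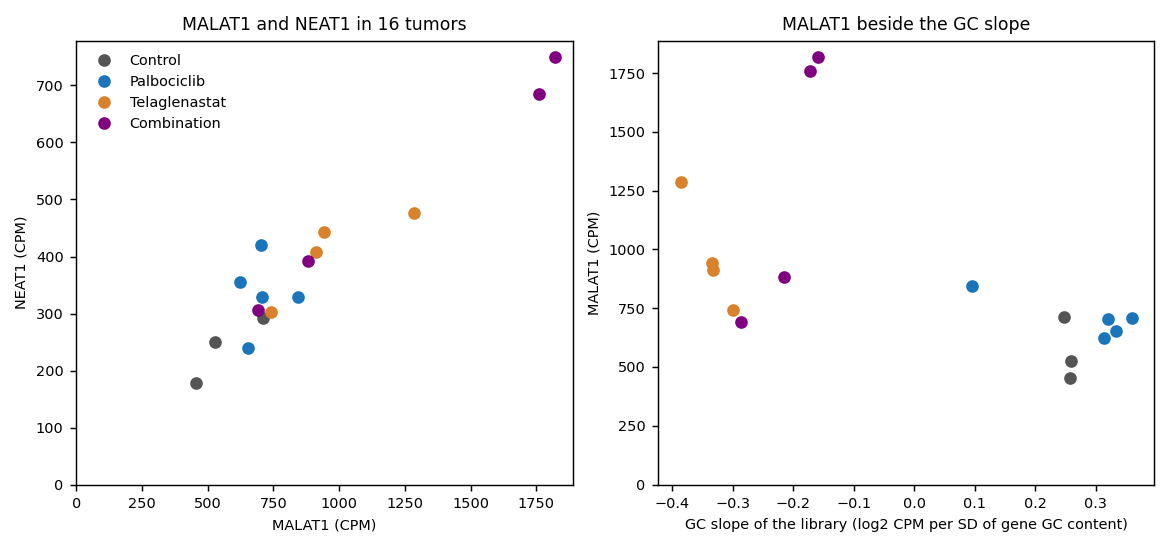
Left, NEAT1 against MALAT1 in CPM in the 16 tumors, colored by treatment. Right, MALAT1 in CPM against the GC slope of the library (log2 CPM relative to the mean over tumors, per SD of gene GC content). Combination replicates 3 and 4 have the highest level of both RNAs, and their GC slopes of -0.172 and -0.160 lie between those of the other groups. Within the Combination tumors both RNAs rise in the same order as the slope, which is -0.287 in replicate 1 and -0.215 in replicate 2. The part of the slope in these levels was not tested.

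GAS5, whose introns hold the largest number of snoRNAs here, had 269.9, 239 and 262 CPM in Control and 372, 441, 455 and 512 CPM in Combination tumors. Every Combination tumor was above every Control tumor, with a log2 fold change of 0.69 (SE 0.12, adjusted p = 0.000124), or 0.48 (adjusted p = 0.00562) corrected. EPB41L4A-AS1, host of SNORA13, had 25.0, 24.2 and 21.7 CPM in Control and 35.3, 45.5, 48.3 and 45.5 CPM in Combination tumors. This was the smallest adjusted p among the members, 1.55e-05, at a log2 fold change of 0.79 (SE 0.12; corrected 0.62, adjusted p = 0.000367). Its exons share 1659 bases with exons of EPB41L4A on the opposite strand, and whether the counting used strand is not given in the sources used here, so reads of both genes may not be separable. The same limit applies to shorter overlaps on the opposite strand of other members. These are 396 bases for MALAT1 (AP000769.2), 271 for DANCR (AC104066.1), 111 for PVT1 (AC103705.1), 42 for GAS5 (GAS5-AS1) and 8 for SNHG12 (TRNAU1AP). SNHG5, host of SNORD50A and SNORD50B, had 57.6, 64.3 and 59.7 CPM in Control and 89.3, 94.1, 93 and 95.4 CPM in Combination tumors. The 4 Combination values were the tightest of the 4 tumor groups, with an SD of 2.61 CPM, and the log2 fold change was 0.52 (SE 0.11, adjusted p = 0.000776; corrected 0.31, adjusted p = 0.0298).

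SNHG12, which carries SNORA16A, SNORA44, SNORA61 and SNORD99, had 30.6, 20.6 and 20.8 CPM in Control and 30.9, 33.8, 37.7 and 55.6 CPM in Combination tumors. The lowest Combination tumor lay just above the highest Control tumor, and the log2 fold change was 0.62 (SE 0.21, adjusted p = 0.0201; corrected 0.78, adjusted p = 0.00823). The call was lost without Control replicate 2 (adjusted p = 0.0972), Control replicate 3 (0.0887) or Combination replicate 4 (0.103). SNHG8, host of SNORA24, had 29.2, 31.4 and 29 CPM in Control and 47.8, 41.7, 44.1 and 47.4 CPM in Combination tumors. SNHG1 had 145, 122 and 127 CPM in Control and 151, 179.6, 190.0 and 208 CPM in Combination tumors. Both were higher in every Combination tumor, with log2 fold changes of 0.50 (SE 0.13, adjusted p = 0.00485) and 0.38 (SE 0.11, adjusted p = 0.0108), and both calls were lost after the correction, at 0.26 (adjusted p = 0.110) and 0.17 (adjusted p = 0.267). The SNHG1 call was also lost without Control replicate 2 (adjusted p = 0.0624).

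DANCR, host of SNORA26 and named for holding back differentiation, had 20.6, 20.3 and 19.5 CPM in Control and 16.7, 18.6, 17.0 and 18.4 CPM in Combination tumors. All 4 Combination tumors were below all 3 Control tumors, yet the log2 fold change of -0.29 (SE 0.13, adjusted p = 0.0784) missed the threshold, and after the correction it was -0.35 (adjusted p = 0.0390), which passed. PVT1, which spans chr8:127794533-128101253 on the plus strand in 21 blocks of exons, had 35.5, 38.6 and 45.4 CPM in Control and 36.4, 36.8, 43.5 and 37.2 CPM in Combination tumors, which overlapped. Its log2 fold change was -0.15 (SE 0.11, adjusted p = 0.312).

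In Telaglenastat tumors, 5 of the 10 RNAs rose against the same Control tumors and PVT1 fell. Of all genes tested, 22.6% were higher and 28.5% lower, so a member called in either direction was no rarity in this comparison. Beside them, 4 of 7 epithelial markers tested fell and 1 rose (KRT19 by a log2 fold change of -2.09, KRT8 -1.36 and KRT18 -1.21), and 7 of 9 stroma and blood markers fell, and their part in the members' values was not tested. EPB41L4A-AS1 had 36.2, 39.5, 37.9 and 37.2 CPM in the 4 Telaglenastat tumors, all above the Control values. Its log2 fold change was 0.57 (SE 0.12, adjusted p = 0.000426), and it was the only member still called after the correction (0.40, adjusted p = 0.0223). SNHG1 had 174, 203, 228 and 220.1 CPM, all above Control, at a log2 fold change of 0.54 (SE 0.11, adjusted p = 0.000549; corrected 0.28, adjusted p = 0.102). GAS5 had 284, 387, 376 and 379 CPM, where replicate 1 lay just above the highest Control tumor. Its log2 fold change of 0.36 (SE 0.12, adjusted p = 0.0180) came to 0.08 (adjusted p = 0.751) after the correction, and the call was lost without Control replicate 2 (adjusted p = 0.0856) or Telaglenastat replicate 2 (0.0532).

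MALAT1 had 741, 940.5, 1286 and 912 CPM in Telaglenastat tumors and NEAT1 had 303, 443, 477 and 408 CPM. Both sets lay above their Control values, replicate 1 by the least. The log2 fold changes were 0.67 (SE 0.26, adjusted p = 0.0381) for MALAT1 and 0.65 (SE 0.25, adjusted p = 0.0378) for NEAT1. After the correction they were 0.29 (adjusted p = 0.540) and 0.39 (adjusted p = 0.339). Either call was lost without Control replicate 2 or 3 or Telaglenastat replicate 2, 3 or 4, with adjusted p of 0.0505 to 0.159 for MALAT1 and 0.0600 to 0.182 for NEAT1. PVT1 had 32.1, 34.5, 29.8 and 33.6 CPM, all below the lowest Control tumor. It fell by 0.40 on the log2 scale (SE 0.11, adjusted p = 0.00620), and its log2 fold change was -0.27 (adjusted p = 0.111) corrected and -0.29 (adjusted p = 0.0581) without Control replicate 3.

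The other 4 members did not pass against Control in Telaglenastat tumors. SNHG5 had 57.6, 81.6, 91.3 and 73.7 CPM, replicate 1 lying among the Control values, and its log2 fold change of 0.22 (adjusted p = 0.108) was 0.32 (adjusted p = 0.00952) without that replicate and -0.01 after the correction. SNHG12 had 23.2, 37.7, 37.0 and 38.3 CPM, with replicate 1 again among the Control values. Its log2 fold change was 0.39 (SE 0.21, adjusted p = 0.125), and it passed without Control replicate 1 (0.61, adjusted p = 0.0382) or Telaglenastat replicate 1 (0.53, adjusted p = 0.0378). SNHG8 had 34.2, 34.1, 35.6 and 28.2 CPM and DANCR 15.7, 22.2, 17.7 and 21.5 CPM. Both overlapped with Control, at log2 fold changes of 0.04 (adjusted p = 0.842) and -0.17 (adjusted p = 0.282).

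In Palbociclib tumors, SNHG5 and EPB41L4A-AS1 rose against Control and DANCR fell, while 2.55% of all genes tested were higher and 3.60% lower. SNHG5 had 68.7, 84.2, 74.1, 79.3 and 84.3 CPM, above all Control tumors, at a log2 fold change of 0.37 (SE 0.11, adjusted p = 0.0416). EPB41L4A-AS1 had 30.5, 33.6, 32.5, 33.2 and 27.6 CPM, also above all Control tumors, at 0.42 (SE 0.11, adjusted p = 0.0252). DANCR had 16.8, 15.9, 14.7, 14.5 and 13.1 CPM, below all Control tumors, at -0.42 (SE 0.12, adjusted p = 0.0472). After the correction all 3 calls held, at 0.40 (adjusted p = 0.0153), 0.43 (adjusted p = 0.0148) and -0.43 (adjusted p = 0.0250). They were near the threshold, since leaving out any 1 of the 3 Control tumors ended each of them (adjusted p of 0.0836 to 0.176 for SNHG5, 0.0526 to 0.139 for EPB41L4A-AS1 and 0.109 to 0.168 for DANCR). The calls were also lost without Palbociclib replicate 2 (0.0624), 4 (0.0763) or 5 (0.0896) for SNHG5, without replicate 3 (0.0515) or 4 (0.0574) for EPB41L4A-AS1, and without replicate 3 (0.0855), 4 (0.0901) or 5 (0.101) for DANCR.

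The remaining 7 members missed the threshold in Palbociclib tumors. SNHG8 had 28.6, 47.3, 38.7, 35.6 and 41.7 CPM, where replicate 1 was below all Control tumors and the other 4 above them. Its log2 fold change was 0.36 (SE 0.13, adjusted p = 0.107), and 0.46 (adjusted p = 0.0120) without that replicate. MALAT1 had 652, 845, 622, 704 and 708 CPM and NEAT1 had 239, 329, 356, 421 and 329 CPM, both overlapping Control. Their log2 fold changes were 0.33 (SE 0.25, adjusted p = 0.557) and 0.48 (SE 0.24, adjusted p = 0.308). GAS5 had 247, 337, 320.4, 326 and 296 CPM (log2 fold change 0.25, SE 0.12, adjusted p = 0.249). SNHG1, with 119, 152, 135, 132 and 120.3 CPM, and SNHG12, with 18.4, 26.6, 23, 24.6 and 27.1 CPM, were closest to Control, at 0.01 (SE 0.11) and -0.01 (SE 0.20). PVT1 had 46.4, 42.3, 45.2, 35.7 and 45.6 CPM (0.12, SE 0.11, adjusted p = 0.638).

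**Figure D3:**
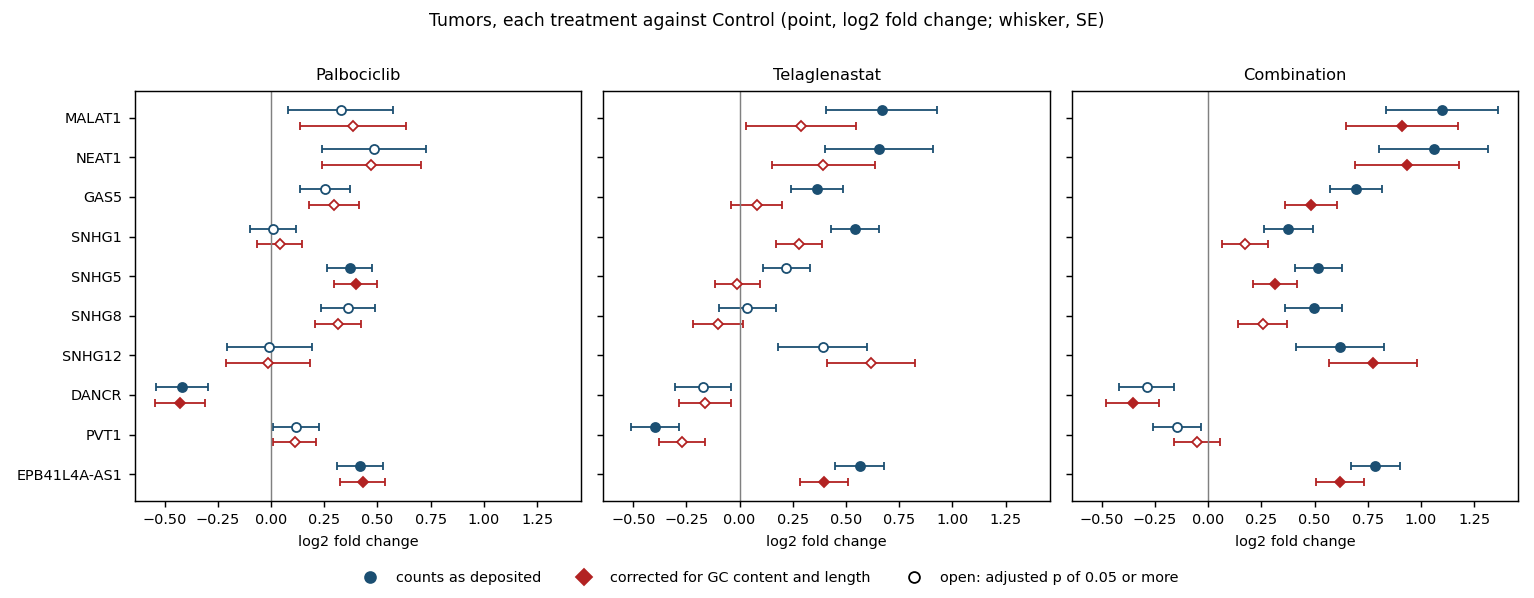
Log2 fold change of each RNA in Palbociclib, Telaglenastat and Combination tumors against the 3 Control tumors (points) with SE (whiskers), for the counts as deposited (circles) and after correction for GC content and length (diamonds); filled symbols have an adjusted p under 0.05. Calls at 5 higher and 1 lower for Telaglenastat become 1 higher after the correction, and 8 higher for Combination become 6 higher and 1 lower. Over all 14848 genes tested, Telaglenastat calls went from 3352 higher and 4238 lower to 830 and 1125. Combination calls went from 2614 higher and 3998 lower to 1925 and 1940.

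Against the Palbociclib tumors, Combination tumors had 6 members higher (MALAT1, NEAT1, GAS5, SNHG1, SNHG12 and EPB41L4A-AS1) and PVT1 lower, where 20.1% of all genes were higher and 27.5% lower. The log2 fold changes of the 6 were between 0.37 (EPB41L4A-AS1 and SNHG1) and 0.77 (MALAT1). SNHG12 was above every Palbociclib tumor in all 4 Combination tumors, and its difference of 0.63 (SE 0.18, adjusted p = 0.00747) was the only one still called after the correction (0.79, adjusted p = 0.00438). The correction brought the other 5 to between 0.13 (SNHG1) and 0.53 (MALAT1, adjusted p = 0.133). Without Combination replicate 4 the calls of MALAT1 (adjusted p = 0.0521), NEAT1 (0.193) and SNHG12 (0.0594) were lost, and that of NEAT1 also without Combination replicate 3 (0.145) or Palbociclib replicate 1, 2 or 5 (0.0509 to 0.0913). PVT1 was at -0.26 (SE 0.10, adjusted p = 0.0342) before and -0.16 (adjusted p = 0.290) after the correction, and it was not called without Palbociclib replicate 1, 3 or 5 or Combination replicate 1, 2 or 4 (adjusted p of 0.0692 to 0.106).

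Against the Telaglenastat tumors, Combination tumors had GAS5, SNHG5 and SNHG8 higher and no member lower, where 8.93% of all genes were higher and 9.89% lower. These 2 groups have GC slopes on the same side of the tumor mean, and all 3 calls held after the correction. SNHG8 did not overlap between the groups, at a log2 fold change of 0.46 (SE 0.12, adjusted p = 0.0128; corrected 0.36, adjusted p = 0.0278), which just failed without Telaglenastat replicate 4 (adjusted p = 0.0508). GAS5 differed by 0.33 (SE 0.11, adjusted p = 0.0445) and SNHG5 by 0.30 (SE 0.10, adjusted p = 0.0467). The GAS5 call was lost without Telaglenastat replicate 1, 3 or 4 or Combination replicate 2, 3 or 4 (adjusted p of 0.0578 to 0.154), and the SNHG5 call without Telaglenastat replicate 1 or 4 or Combination replicate 2, 3 or 4 (0.0810 to 0.160). MALAT1 and NEAT1 did not pass, at 0.43 (SE 0.24) and 0.41 (SE 0.23), but did so without Combination replicate 1 (0.66, adjusted p = 0.0311, and 0.62, adjusted p = 0.0445), as did EPB41L4A-AS1 (0.33, adjusted p = 0.0175, against 0.22, adjusted p = 0.155, with all libraries). The 5 comparisons share tumors, so their calls are not separate pieces of evidence.

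In the cultures no member passed in any of the 5 comparisons between treatments, by edgeR before or after the correction or by DESeq2. Of all 13985 genes tested, 0.00715% were lower in Combination against Control cultures and 0% were higher there or called in either direction in the other 4 comparisons. An unadjusted p under 0.05 was reached by 3 members in Telaglenastat against Control cultures, 1 in Combination against Telaglenastat cultures and none in the other 3. Of the 13985 genes, 898 reached it in the first of these and 1969 in the second. In the other 3 comparisons 592 (Palbociclib against Control), 895 (Combination against Control) and 277 (Combination against Palbociclib) did. The nearest to a difference was SNHG8, with 52.2, 38.6 and 78.1 CPM in Telaglenastat cultures against 31.7, 34.0 and 33.3 CPM in Control cultures. These groups did not overlap, and the log2 fold change was 0.75 (SE 0.21, unadjusted p = 0.00350, adjusted p = 0.711). Telaglenastat cultures were the most uneven group, MALAT1 having 697, 508 and 1258 CPM and SNHG5 74.4, 48.6 and 100.3 CPM there. Replicate 2, the lowest for both, was also the culture with the steepest GC slope (0.422), and the part of that slope in these levels was not tested.

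In the other cultures, MALAT1 ranged from 461 to 719 CPM and GAS5 from 293 to 378 CPM. EPB41L4A-AS1, which rose in tumors under all 3 treatments, had 33.4, 29.7 and 32.8 CPM in Control cultures and 34.7, 32.5 and 36.1 CPM in Combination cultures. Those values overlapped, and the log2 fold change was 0.10 (SE 0.15, adjusted p = 0.856). PVT1 in Combination cultures, at 37.2, 31.9 and 31.1 CPM, was at -0.28 against Control (SE 0.13, adjusted p = 0.681). With 3 cultures a group the SE of a member's log2 fold change lay between 0.11 (SNHG1) and 0.25 (MALAT1), and a p that missed the threshold does not show that the cultures were alike.

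**Figure D4:**
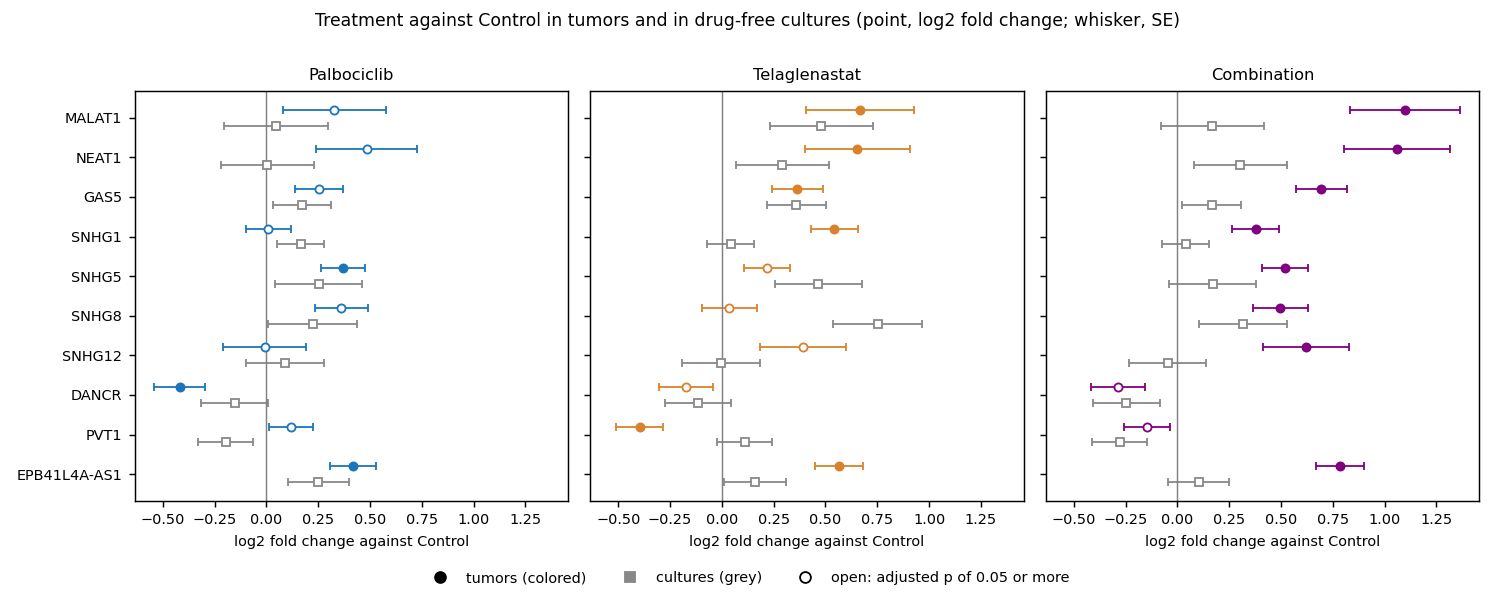
Log2 fold change of each RNA against Control in tumors (colored circles) and in drug-free cultures (grey squares), with SE (whiskers), for Palbociclib, Telaglenastat and Combination; filled symbols have an adjusted p under 0.05. No culture symbol is filled, and SNHG8 with Telaglenastat lies at 0.75 in cultures and 0.04 in tumors.

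Whether a treatment's difference was unlike in tumors and cultures was tested directly, as the difference of both log2 fold changes in 1 model of all 28 libraries. For Telaglenastat it was larger in tumors for SNHG1 by 0.60 (SE 0.16, adjusted p = 0.00639) and for EPB41L4A-AS1 by 0.50 (SE 0.17, adjusted p = 0.0280), where 15.6% of all genes had a larger and 18.5% a smaller value in tumors. After the correction neither held (0.26, adjusted p = 0.336, and 0.27, adjusted p = 0.414), and SNHG8, at -0.62 (adjusted p = 0.0538) before it, passed at -0.72 (adjusted p = 0.0311). The EPB41L4A-AS1 call was lost without Control culture 1 or 3, Telaglenastat culture 2 or Control tumor 3 (adjusted p of 0.0515 to 0.108). For Combination, EPB41L4A-AS1 was larger in tumors by 0.78 (SE 0.17, adjusted p = 0.0166), where 2.11% of all genes had a larger and 0.795% a smaller value. This also fell short after the correction (0.58, adjusted p = 0.0531) and without Combination culture 3 (adjusted p = 0.0533) or Control tumor 3 (0.0561). MALAT1, at 1.02 (SE 0.40, adjusted p = 0.140), and GAS5, at 0.63 (SE 0.19, adjusted p = 0.0682), missed the threshold. For Palbociclib no member passed, the smallest adjusted p being 0.401 for PVT1 (no member by DESeq2 and none at an unadjusted p under 0.05), where 0.356% of all genes had a larger and 1.03% a smaller value. An unadjusted p under 0.05 was reached there by 2159 of 15466 genes. A treatment with calls in tumors and none in cultures is therefore shown to differ between them only for the genes and settings just named.

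The widest differences of the set were between tumors and cultures of the same treatment, which also differ in everything else that goes with tissue and culture dish, so the kind of sample and any processing batch cannot be told apart. SNHG1 and DANCR were lower in tumors in all 4 treatments and SNHG12 in 3 of 4. Among Control samples 5 members were lower in tumors and none higher, where 22.8% of all genes were lower and 23.1% higher. SNHG1 had 145, 122 and 127 CPM in Control tumors and 356, 412 and 377 CPM in Control cultures, a log2 difference of -1.54 (SE 0.12, adjusted p = 1.11e-10). DANCR had 20.6, 20.3 and 19.5 CPM in these tumors and 51.9, 60.5 and 56.8 CPM in these cultures (-1.48, SE 0.15, adjusted p = 7.20e-09). SNHG12 had 52.9, 57.5 and 55.4 CPM in Control cultures, more than any of the Control tumors (-1.20, SE 0.22, adjusted p = 7.07e-05). NEAT1 had 400.4, 464 and 578 CPM in Control cultures (-1.0, SE 0.27, adjusted p = 0.00381), and EPB41L4A-AS1 was at -0.43 (SE 0.13, adjusted p = 0.00698). After the correction the first 4 were at -1.27, -1.45, -1.32 and -1.0 with adjusted p of 0.00209 or less, EPB41L4A-AS1 was no longer called (-0.25, adjusted p = 0.0995) and SNHG5 was called higher in tumors (0.43, adjusted p = 0.0173).

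SNHG1 had 410.0, 426 and 451 CPM in Palbociclib, 414, 334 and 443 CPM in Telaglenastat and 402, 375 and 401 CPM in Combination cultures. The highest of the 16 tumors had 228 CPM, so no tumor reached the lowest culture. The tumor value was lower by a log2 difference of -1.71 (SE 0.10) with Palbociclib, -0.94 (SE 0.11) with Telaglenastat and -1.11 (SE 0.11) with Combination, at adjusted p of 1.72e-07 or less. DANCR had 45.0, 49.7 and 57.8 CPM in Palbociclib, 40.9, 57.0 and 60 CPM in Telaglenastat and 41.7, 46.3 and 54.9 CPM in Combination cultures, again above all tumors. Its log2 differences were -1.76 (SE 0.13), -1.45 (SE 0.14) and -1.43 (SE 0.14), at adjusted p of 3.93e-09 or less, and those of both genes held after the correction and with any 1 library left out. SNHG12 was at -1.31 (SE 0.19, adjusted p = 1.22e-06) for Palbociclib, -0.71 (SE 0.20, adjusted p = 0.00620) for Telaglenastat and -0.44 (SE 0.20, adjusted p = 0.0920) for Combination. The Telaglenastat call was lost without culture replicate 3 (adjusted p = 0.0766), and the Combination value passed after the correction (-0.55, adjusted p = 0.0334) or without tumor replicate 4 (-0.65, adjusted p = 0.0129).

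The other members stood differently by treatment. Among Palbociclib samples 1 member was higher in tumors (PVT1, 0.28, adjusted p = 0.0262) and 4 were lower, where 33.7% of all genes were higher and 28.8% lower. EPB41L4A-AS1, one of the lower members, was at -0.28 (adjusted p = 0.0318), and neither it (-0.004, adjusted p = 0.978) nor PVT1 (0.14, adjusted p = 0.276) was called after the correction. The PVT1 call was also lost without culture replicate 1 or 3 or tumor replicate 1 or 5 (adjusted p of 0.0502 to 0.0842) and that of EPB41L4A-AS1 without culture replicate 2 or 3 or tumor replicate 1 or 5 (0.0571 to 0.256). The correction made MALAT1 (0.65, adjusted p = 0.0392) and SNHG5 (0.68, adjusted p = 5.42e-05) higher in Palbociclib tumors, and turned GAS5 from -0.16 (adjusted p = 0.279) to 0.30 (adjusted p = 0.0274). Among Telaglenastat samples 5 members were lower in tumors, SNHG8 (-0.76, SE 0.17, adjusted p = 0.000626) and PVT1 (-0.44, SE 0.11, adjusted p = 0.00270) joining SNHG1, SNHG12 and DANCR, and none was higher, where 23.5% of all genes were lower and 19% higher. All 5 held after the correction, and NEAT1 was then called lower as well (-0.98, adjusted p = 0.00113). Among Combination samples MALAT1 (0.98, SE 0.28, adjusted p = 0.00611), SNHG5 (0.63, SE 0.16, adjusted p = 0.00271), GAS5 (0.40, SE 0.13, adjusted p = 0.0171) and EPB41L4A-AS1 (0.35, SE 0.12, adjusted p = 0.0228) were higher in tumors and SNHG1 and DANCR lower, where 19.2% of all genes were higher and 17.5% lower. The MALAT1 and SNHG5 calls held with any 1 library left out, while that of GAS5 was lost without culture replicate 2 or 3 or tumor replicate 4 (adjusted p of 0.0639 to 0.0980) and that of EPB41L4A-AS1 without culture replicate 1 or 2 or tumor replicate 2, 3 or 4 (0.0512 to 0.102).

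**Figure D5:**
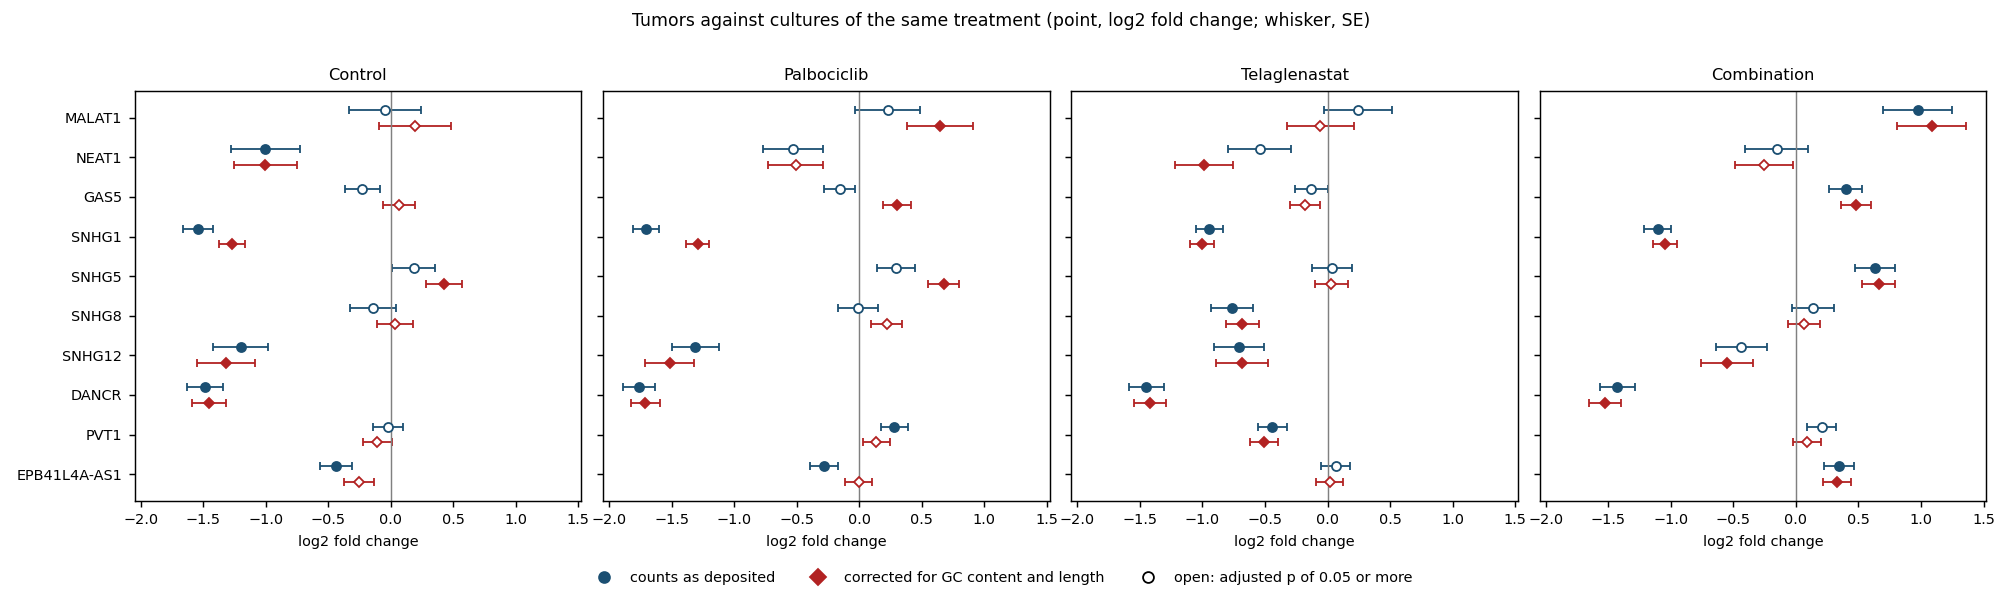
Log2 difference of each RNA between tumors and cultures of the same treatment (points, positive where tumors were higher) with SE (whiskers), for the counts as deposited (circles) and after correction for GC content and length (diamonds); filled symbols have an adjusted p under 0.05. SNHG1 and DANCR lie left of -0.9 in all 4 panels before and after the correction.

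Genes that work with these RNAs were counted from lists chosen by name. Their counts stand against shares of all genes tested of 17.6% higher and 26.9% lower with Combination, 22.6% and 28.5% with Telaglenastat and 2.55% and 3.60% with Palbociclib. Of 15 tested among 23 other noncoding snoRNA hosts, 5 rose and 2 fell in Combination tumors against Control (median log2 fold change -0.20, against -0.036 over all genes), 1 rose and 4 fell with Telaglenastat (median -0.32, against 0.027) and 2 rose and none fell with Palbociclib (median -0.041, against 0.00067). ZFAS1, another host, rose from 172 ± 8.45 CPM (SD, n = 3) in Control to 232 ± 27.8 (SD, n = 5) with Palbociclib (log2 fold change 0.43, SE 0.10, adjusted p = 0.0119) and 315 ± 27.7 (SD, n = 4) with Combination (0.77, SE 0.11, adjusted p = 8.42e-06). SNHG11 and SNHG17 fell with Telaglenastat (-1.31, adjusted p = 0.00303, and -0.68, adjusted p = 0.00652) and with Combination (-0.91, adjusted p = 0.030, and -0.57, adjusted p = 0.0210). The other hosts thus differed among themselves in direction. Of 24 protein-coding hosts tested, 7 rose and 7 fell with Combination, 8 and 6 with Telaglenastat and 0 and 1 with Palbociclib, so the numbers that fell were near those shares. The last was HNRNPA2B1, a splicing regulator, which fell from 1201 ± 48.3 CPM (SD, n = 3) to 893 ± 68.9 (SD, n = 5).

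Of 29 other long noncoding RNAs tested, 10 rose and 4 fell with Combination (median 0.25), 9 and 4 with Telaglenastat (median 0.23) and 3 and 1 with Palbociclib (median 0.080). H19, an imprinted RNA, rose from 8.19 ± 1.49 CPM (SD, n = 3) to 25.2 ± 10.8 (SD, n = 5) with Palbociclib (1.64, SE 0.40, adjusted p = 0.0157) and 23.7 ± 15 (SD, n = 4) with Combination (1.42, SE 0.42, adjusted p = 0.00933). NORAD, which binds PUMILIO proteins, rose with Palbociclib (0.37, SE 0.07, adjusted p = 0.00310), and DLEU2 fell (-1.26, SE 0.18, adjusted p = 0.000187). The RNAs of paraspeckle proteins that assemble on NEAT1 did not rise with the NEAT1 row in Combination tumors. There 0 of 21 rows (20 genes, MATR3 having a pair of rows) were higher and 9 lower (median -0.13). SMARCA4 (-1.04, SE 0.15, adjusted p = 1.14e-05), EWSR1 (-0.81, SE 0.08, adjusted p = 1.14e-07) and RBM14 (-0.71, SE 0.12, adjusted p = 4.44e-05) were among the latter. With Palbociclib 0 rose and 8 fell (median -0.23), and with Telaglenastat 8 rose and 5 fell (median 0.13). The NEAT1 row pools all transcripts of the gene as sampled from poly(A) RNA, and its transcripts were not told apart.

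Of 21 nuclear speckle and splicing factors, 4 rose and 4 fell with Combination (median 0.054), 8 and 2 with Telaglenastat (median 0.29) and 0 and 5 with Palbociclib (median -0.16). The splicing factor subunit U2AF2, among the 2 that fell with Telaglenastat where 8 rose, was at -1.49 there (SE 0.14, adjusted p = 7.09e-08). It also fell with Combination (-1.60, SE 0.14, adjusted p = 7.05e-08), and SRSF3 fell with Palbociclib (-0.39, SE 0.07, adjusted p = 0.00121). Of 21 nonsense-mediated decay factors, 3 rose and 6 fell with Combination (median -0.019), 9 and 4 with Telaglenastat (median 0.18) and 0 and 2 with Palbociclib (median -0.065). UPF1, the helicase at the center of that pathway, was among the 4 that fell with Telaglenastat, where 9 rose. It went from 53.8 ± 3.62 CPM (SD, n = 3) to 23.1 ± 2.53 (SD, n = 4) with Telaglenastat and 26.0 ± 1.66 (SD, n = 4) with Combination (-1.33 and -1.15, adjusted p = 3.92e-08 and 2.84e-07). Of 18 snoRNP proteins and assembly factors, 2 rose and 6 fell with Combination (median 0.046), 4 and 6 with Telaglenastat (median 0.014) and none changed with Palbociclib (median -0.036). FBL, the methyltransferase of box C/D snoRNPs, fell with Telaglenastat (-0.83, SE 0.09, adjusted p = 3.95e-07) and Combination (-1.06, SE 0.09, adjusted p = 6.13e-08). The list values are for the counts as deposited, and the GC slopes of the libraries apply to them too. In the cultures 0 genes of any list passed in any comparison between treatments.

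Between Control tumors and Control cultures, 12 of 18 proteins that make snoRNPs were lower in tumors, as were SNHG1 and DANCR, and none was higher (median -0.75, against 0.067 over all genes, of which 22.8% were lower and 23.1% higher). NOP56 (-1.11, SE 0.11, adjusted p = 1.14e-08), NOP58 (-0.98, SE 0.13, adjusted p = 8.78e-07) and NUFIP1 (-1.01, SE 0.19, adjusted p = 7.89e-05) had the largest differences among those whose groups did not overlap. Of 24 protein-coding hosts 17 were lower in tumors and 3 higher (median -0.60), with HSPA9 at -1.25 (SE 0.09, adjusted p = 8.16e-12). Of 16 other noncoding hosts 3 were lower and 3 higher (median -0.066), near the shares over all genes, with SNHG3 (-1.20, SE 0.15, adjusted p = 5.12e-07) and SNHG4 (-1.18, SE 0.16, adjusted p = 8.46e-07) among the lower. Paraspeckle proteins (15 of 21 lower, 0 higher, median -0.49) and speckle and splicing factors (15 of 21 lower, 1 higher, median -0.54) were counted in the same way, as were nonsense-mediated decay factors (10 of 21 lower, 2 higher, median -0.21), and the lists were not tested against each other. Other long noncoding RNAs had 4 of 29 higher and 5 lower (median -0.066). Of the epithelial markers 5 of 7 tested were higher in tumors (median 0.79) and of the stroma and blood markers 8 of 10 (median 3.16), and the part of stroma in the members' differences was not tested.

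For each member the tested genes with the most similar pattern over the 16 tumors were found by Pearson's r of log2 CPM, given as a description, since tumors of 1 treatment share their GC slope and the groups lie apart. MALAT1 was closest to NEAT1 (r = 0.93 over tumors, 0.39 over the 12 cultures) and ZNF83 (0.92 and 0.44). NEAT1 was closest to GOLGA8A (0.96 and 0.49) and GOLGA8B (0.94 and 0.46), near-identical copies between which reads may be shared, which was not examined. SNHG1 was closest to CCNL1 (0.97 and 0.62) and CREBZF (0.96 and 0.82), SNHG12 to RSRP1 (0.95 and 0.35) and LUC7L3 (0.93 and 0.72). SNHG5 was closest to RP11-50C13.1 (0.91 and -0.36) and to the host ZFAS1 (0.89 and 0.81). SNHG8 stood closest to PFDN5 (0.90 and 0.57) and the ribosomal protein gene RPL31, with 0.88 in both kinds of sample. GAS5 was closest to RP11-311C24.1 (0.96 and 0.41) and ZBTB8OS (0.94 and 0.27), EPB41L4A-AS1 to DNAJC10 (0.95 and 0.48) and UFM1 (0.94 and 0.39). DANCR had the loosest neighbors, TCF19 (0.84 and 0.71) and GK (0.83 and 0.03), and PVT1 had SSSCA1 (0.94 and 0.56) and CD99 (0.86 and 0.66). The genes were picked for their r over tumors, so the values over cultures are not to be ranked against those.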

How the data were processed

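RNA-seq was made from poly(A) RNA with an RNA integrity number above 8, with second strands marked by uracil and read as single 60-base reads. The authors processed the reads with CASAVA 1.8 and aligned them with STAR to hg38 per the labels, and deposited whole-number counts per gene without normalization. The annotation release and the use of strand in counting are not given in the sources used here. Of the 58278 gene identifiers, 57940 were found in GENCODE 29, from which lengths, GC content and coordinates were taken. Sequences came from RefSeq tables of GRCh38.p14.

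Counts were tested with edgeR 4.0.16 (R 4.3.3), by its quasi-likelihood test with TMM normalization after filterByExpr (minimum count 10), with Benjamini-Hochberg adjustment over all genes tested and a threshold of 0.05. Tumors (14848 genes) and cultures (13985 genes) were fitted apart, and tumors were compared with cultures in 1 fit of all libraries (15466 genes). CPM used TMM factors over all libraries. Correction for GC content and length removed a robust spline trend (4 degrees of freedom each, MASS 7.3.60.0.1) from each library as an offset. DESeq2 1.42.0, other size factors, no filter, a replicate block, 1 common fit and leaving out each library were alternatives. The test was tried on simulated counts with known changes. No 2 replicates held identical values, over 37 pairs. Replicate numbers gave no sign of pairing between treatments, and whether a culture pairs with a tumor was not examined. For p-values over tumors or culture lines, the spread between these samples is what is measured. PCR reads carry no molecular identifiers, and library totals limit the precision of low counts.

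The members and the gene lists were chosen with earlier results of these data known. The text names all 10 members, and examples from each list, taken from the up to 3 genes with the largest changes among those called whose groups did not overlap (which of these are named was chosen after their values were seen), and for each member the 2 genes with the highest Pearson's r over tumors. Not all genes this rule allows are reported here.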

Additional observations from a re-analysis of the deposited data

Results flagged for a closer look

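In groups of 4 or 5 tumors, 3 of 30 sets of values held a library far from the rest by Dixon's criterion (gap to the nearest library over the whole range above the critical value for that number of libraries), where chance alone gives about 1 in 20. SNHG12 had 23.2 CPM in Telaglenastat tumor replicate 1, the nearest of the group having 37.0 CPM (gap over range 0.929). GAS5 had 284 CPM in the same tumor, the nearest having 376 CPM (0.908). PVT1 had 43.5 CPM in Combination tumor replicate 3, above the nearest at 37.2 CPM (0.879).

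In 3 cases the treatment difference was unlike in tumors and cultures, and the difference itself was tested in edgeR. For Telaglenastat it was larger in tumors by 0.60 on the log2 scale for SNHG1 (SE 0.16, adjusted p = 0.00639) and by 0.50 for EPB41L4A-AS1 (SE 0.17, adjusted p = 0.0280). Of all genes, 15.6% had a larger and 18.5% a smaller value there. For Combination it was larger in tumors by 0.78 for EPB41L4A-AS1 (SE 0.17, adjusted p = 0.0166), where 2.11% of all genes had a larger and 0.795% a smaller value. None of the 3 calls held after correction for GC content and length. Both EPB41L4A-AS1 calls were also lost without some single libraries.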

How the results depend on the processing

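Correction for GC content and length changed the most calls. The number of members called went from 6 to 1 for Telaglenastat against Control tumors and from 7 to 1 for Combination against Palbociclib tumors. It went from 2 to 1 for the Telaglenastat difference between tumors and cultures and from 1 to 0 for the Combination difference. With the replicate block added to the correction these counts were 1, 1, 0 and 0. For the Telaglenastat difference neither earlier call held, and the 1 call after the correction was SNHG8, smaller in tumors. Calls over all genes changed with the correction as well. Of 14848 genes, 3352 higher and 4238 lower became 830 and 1125 for the first comparison. For the second, 2988 and 4076 became 1011 and 1130. Of 15466 genes, 2417 higher and 2861 lower became 192 and 396 for the Telaglenastat difference. For the Combination difference, 327 and 123 became 213 and 195. Signs turned for SNHG5 in Telaglenastat against Control tumors (-0.0107 corrected, -0.0402 with block), GAS5 in Palbociclib tumors against cultures (0.30 and 0.24) and EPB41L4A-AS1 there (0.0157 with correction and block). Without the filter on low counts 6 members were called for Palbociclib against Control tumors, 5 for Combination against Telaglenastat tumors, 1 for Telaglenastat against Control cultures and 2 for the Combination difference. Over all genes the calls higher and lower were then 614 and 540 of 32828, 1343 and 1410 of 32828, 87 and 33 of 30911, and 241 and 1001 of 36046. In 1 fit of all 28 libraries the first 2 of these comparisons had 1 and 0 members called. Of 15466 genes, that fit called 165 higher and 348 lower in the first and 699 and 1079 in the second. DESeq2 called 4 members for the Telaglenastat difference, where it called 2217 genes higher and 3011 lower of 15466. The cause of these changes was not tested.

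With the replicate number as a block, 1 member was called for Palbociclib against Control tumors, where 284 genes were higher and 367 lower of 14848. The numbers gave no sign of pairing between treatments. Deviations of same-numbered tumors correlated at -0.115 to 0.0806 over 21 pairs and those of cultures at -0.365 to 0.133 over 18, of which 2 were above 0.1. Such values cannot exclude a pairing, and cultures were not compared with tumors in this way.

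When 1 library at a time was left out, the calls ranged from 0 to 4 for Palbociclib, 3 to 8 for Telaglenastat and 6 to 8 for Combination against Control tumors, 3 to 7 for Combination against Palbociclib and 0 to 6 against Telaglenastat tumors. Between tumors and cultures they were 5 for Control in each case, 3 to 6 for Palbociclib, 4 to 5 for Telaglenastat and 4 to 6 for Combination. For the treatment differences between tumors and cultures they were 0, 1 to 4 and 0 to 1, and between cultures 0 throughout.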
